A study of Homo sapiens with 12 samples.

Results

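Vimentin (VIM) and 9 other genes that are commonly read as markers or drivers of the epithelial-mesenchymal transition were followed in HCC1806 cells, a human triple-negative breast cancer (TNBC) line. The 10 genes were VIM, CDH1, CDH2, FN1, EPCAM, ZEB1, ZEB2, SNAI1, SNAI2 and TWIST1, and they were taken by gene identifier from a table of 17013 genes. Of these 10 genes, 9 were in the table, and ZEB1 was not among its genes and is not analysed here. The table holds genes whose highest group mean was at least 10.67 normalized reads. ZEB2, with a highest group mean of 13.6 normalized reads, lay close to that edge.

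The cells belonged to 4 groups with 3 libraries each, 12 in all. They received either a non-targeting siRNA (siNT) or a pool of 4 siRNAs against MLK4 (siMLK4), a kinase of the mixed-lineage family encoded by MAP3K21. After 24 h they received 1 μM doxorubicin, a topoisomerase poison that breaks DNA, or vehicle for 24 h. The labels call the vehicle DMSO, but the titles mark these libraries as time 0 and the doxorubicin libraries as 24 h. The study's own text describes both vehicle left on for 24 h and cells left untreated. If vehicle cells were collected when the drug was added, each doxorubicin comparison also holds 24 h of culture, and drug and culture time cannot be told apart. All groups were therefore transfected cells of 1 established line grown in the same medium, and the values are averages over bulk cultures, in which fewer cells with a transcript and less transcript per cell cannot be told apart. The study's methods state that cells were transfected in triplicate, but not whether the triplicates were separate experiments, and the labels do not say either. The p-values therefore measure the spread between the 3 libraries of a group. The libraries held 16759025 to 19302248 reads in the table. Levels are given as normalized reads, which are the reads recovered from the deposited values divided by the size factors of the authors.

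In an epithelial-mesenchymal transition, cells give up junctions built on E-cadherin (CDH1) and take on a motile, spindle-like state with N-cadherin (CDH2), the intermediate filament vimentin and a fibronectin (FN1) matrix. Transcription factors of the SNAI, ZEB and TWIST families repress CDH1 and other epithelial genes, SNAI and ZEB through E-box words in promoters. EPCAM, an adhesion protein of epithelial cells, is commonly used to mark cells that have kept epithelial character. Basal-like breast cancers often carry features of both states, and members of the SNAI family are also known to respond to stress signals.

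Doxorubicin raised 5 of the 9 genes in siNT cells, namely VIM, CDH2, FN1, SNAI1 and TWIST1, where 12.1% of all genes tested were called higher and 10.6% lower, and it left CDH1 and EPCAM below the threshold for a change. The siMLK4 cells had less VIM than siNT cells with vehicle and with doxorubicin, and with doxorubicin they also had less SNAI2, where 3.14% of all genes were called lower with vehicle and 2.93% with doxorubicin. The calls come from 1 limma fit over all 12 libraries and needed both an adjusted p below 0.01 and a log2 fold change beyond 0.75 in either direction on the scale of the deposited values. That scale compresses the changes of genes with few reads. A doubling is worth 0.19 from 3 normalized reads, 0.46 from 20, 0.81 from 150 and 0.96 from 1000.

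The siRNA labels were first checked on the target. In siNT cells MAP3K21 had 553, 670 and 674 normalized reads with vehicle and 758, 856 and 772 with doxorubicin. After siMLK4 the target was at 103, 94.7 and 88.7 with vehicle and at 113, 138 and 94.4 with doxorubicin. The siMLK4 and siNT libraries did not overlap, and the target fell to 15.1% of the siNT mean with vehicle (log2 fold change −2.24, SE 0.12, adjusted p = 9.7e-08) and to 14.5% with doxorubicin (−2.37, SE 0.12, adjusted p = 1.1e-07).

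The siRNAs are shown because every comparison between siMLK4 and siNT cells rests on them. Each is given 5′ to 3′ as the strand that reads like the target, with the 7 bases in capitals (positions 12 to 18) that pair with the seed, bases 2 to 8, of the opposite guide strand.
siMLK4 #1, in exon 9: ggaaagaugcuCAGAGAGauu
siMLK4 #2, in exon 5: aggagaagcccAAGGUAAauu
siMLK4 #3, in exon 9: agaagaaacgaGAGGGAAuuu
siMLK4 #4, in exon 7: agaacagauugCAAAGAAauu
The first 19 bases of each matched the coding sequence of MAP3K21 on the + strand of chromosome 1 (GRCh38). The matches lay at chr1:233379030-233379048 in exon 9 for siMLK4 #1, at chr1:233362204-233362222 in exon 5 for #2, at chr1:233379276-233379294 in exon 9 for #3 and at chr1:233376047-233376065 in exon 7 for #4. None of the 19-base matches occurred in transcripts of another gene of the table. The 7-base words were sought in the 3′UTRs of all annotated coding transcripts of 13586 genes of the table, and 58.2% of these genes held at least 1 of the 4 words, against 5 of the 9 genes described here. VIM, FN1, EPCAM and SNAI1 held none. CDH1 held the word of #4, CDH2 that of #3, TWIST1 that of #4, and ZEB2 and SNAI2 each held the words of #1, #3 and #4, each in at least 1 annotated transcript. The longest annotated 3′UTR of CDH1 held none of the words, that of ZEB2 held the word of #4 alone, and that of SNAI2 held all 3. A word match is a description of the sequence, and its part in any difference between siMLK4 and siNT cells was not tested.

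Of the genes followed here, the epithelial genes EPCAM and CDH1 were far more abundant than the mesenchymal genes VIM, CDH2 and FN1 in every group. Per kilobase of exon, EPCAM stood first with 5688 ± 1183 normalized reads in siNT vehicle cells (mean ± SD, n = 3) and CDH1 second with 703 ± 106. SNAI2 followed with 269 ± 42.7 per kilobase, then FN1 with 49.5 ± 16.7 and TWIST1 with 48.1 ± 2.27, whose libraries overlapped. CDH2 had 37.9 ± 5.11 per kilobase, SNAI1 8.14 ± 2.44, VIM 3.60 ± 0.690 and ZEB2 0.240 ± 0.0590.

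EPCAM and CDH1 kept the first 2 places, VIM the eighth and ZEB2 the ninth in all 4 groups. The middle of the order differed with doxorubicin, where SNAI1 was the fourth gene in siNT cells with 162 ± 50.5 per kilobase and the third in siMLK4 cells with 139 ± 45.0, and its libraries overlapped those of the gene next below it in both. In siMLK4 vehicle cells VIM, with 0.530 ± 0.489 per kilobase, could not be separated from ZEB2, with 0.418 ± 0.0373. VIM in siNT vehicle cells exceeded 20.4% of the genes of the table in normalized reads, and even in siNT doxorubicin cells it exceeded no more than 39.8%.

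**Figure D1:**
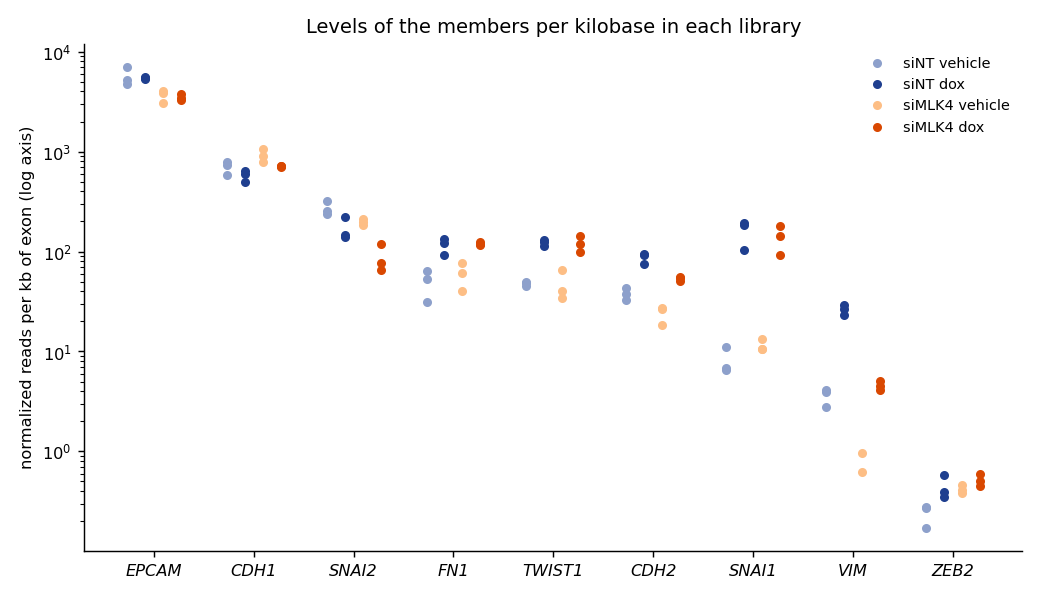
Normalized reads per kilobase of exon (log axis) of the 9 genes in each of the 12 libraries, coloured by group, with genes ordered by their mean in siNT vehicle cells. EPCAM and CDH1 lie highest in all groups and VIM and ZEB2 lowest. The siMLK4 vehicle library with 0 VIM reads has no point.

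VIM encodes the main intermediate filament protein of mesenchymal cells. The gene lies on the + strand of chromosome 10 at chr10:17228241-17237593 (GRCh38). The siNT libraries held 21.1, 14.5 and 20.2 normalized reads of VIM with vehicle and 150, 121 and 137 with doxorubicin. Its siMLK4 libraries held 0, 4.98 and 3.24 with vehicle and 21.2, 23.4 and 26.3 with doxorubicin. No pair of groups overlapped, although the siNT vehicle and siMLK4 doxorubicin libraries, which differ in both siRNA and drug, came as close as 21.1 and 21.2.

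With doxorubicin the mean of VIM rose 7.31-fold in siNT cells, a log2 fold change of 1.62 on the deposited scale (SE 0.14, adjusted p = 8.1e-07). In siMLK4 cells the ratio of the means was 8.61, with a log2 fold change of 0.93 (SE 0.14, adjusted p = 9.3e-05). The siMLK4 vehicle group rests on 8 reads in all, so that the ratio of pooled reads in siMLK4 cells had a 95% interval of 4.17 to 20.6 for counting error only. Between siRNAs, VIM in siMLK4 cells was at 14.7% of the siNT mean with vehicle (−0.79, SE 0.14, adjusted p = 0.0013) and at 17.4% with doxorubicin (−1.48, SE 0.14, adjusted p = 1.2e-05). The doxorubicin difference held in all 12 fits that left out 1 library. The vehicle difference and the rise in siMLK4 cells were no longer called without the siMLK4 vehicle library that had 0 reads (−0.60 and 0.75). The vehicle difference was also lost with scaling by library totals (−0.73) and in a fit of the 2 vehicle groups alone (adjusted p = 0.02).

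**Figure D2:**
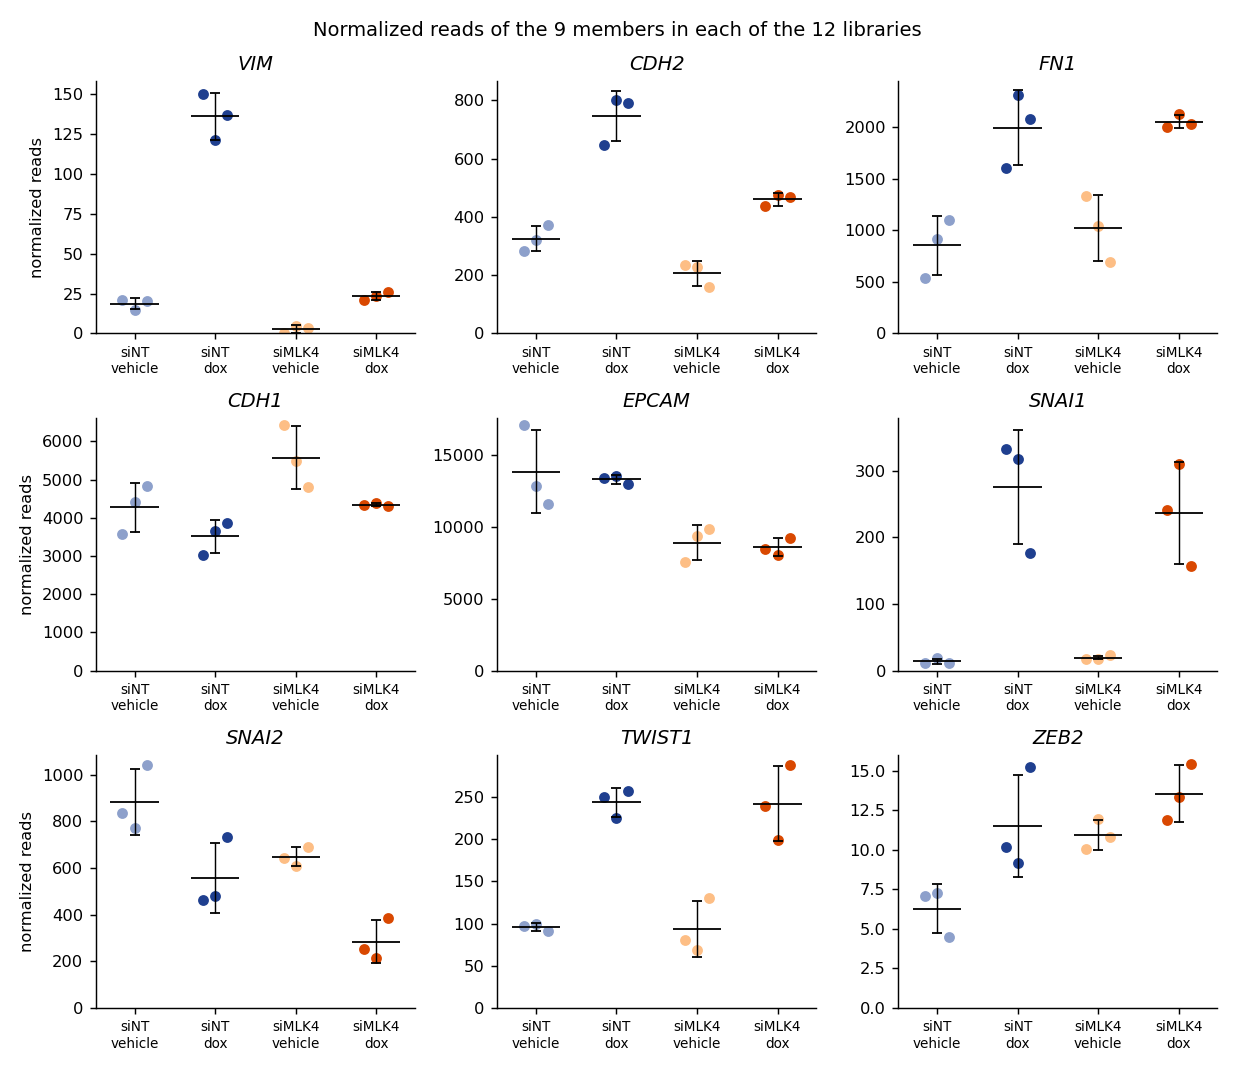
Normalized reads of the 9 genes in every library (points), with the mean (horizontal line) and SD (error bar) of the 3 libraries of each group, each axis starting at 0. VIM is highest in siNT doxorubicin cells (121 to 150) and lowest in siMLK4 vehicle cells (0 to 4.98), and SNAI1 is high in both doxorubicin groups.

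VIM-AS1, a transcript read from the opposite strand across the start of VIM, had few reads. It had 1 read in each siNT vehicle library and 16, 20 and 12 in those given doxorubicin. The siMLK4 libraries held 0 reads in all 3 with vehicle and 0, 2 and 3 with doxorubicin. It reached the level needed for the table in siNT doxorubicin cells alone, so its differences from that group are described and not tested. Its siMLK4 groups held at most 3 reads per library, so no fold is given for them.

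The windows before the start of VIM, CDH2 and FN1 are shown because these 3 mesenchymal genes rose together with doxorubicin. Each holds 250 bases before and 50 bases after a start site annotated by RefSeq (GRCh38.p14). The set of windows used here covered 5 of the 10 genes (VIM, CDH2, FN1, ZEB1 and ZEB2). CDH1, EPCAM, SNAI1, SNAI2 and TWIST1 had no window in this set and were not searched. Capitals mark 3 words searched on both strands, which are CAGGTG (the E-box word bound by SNAI and ZEB factors), TGANTCA (the AP-1 word) and GGGCGG (the GC box of SP1).
VIM, chr10:17227991-17228290, + strand: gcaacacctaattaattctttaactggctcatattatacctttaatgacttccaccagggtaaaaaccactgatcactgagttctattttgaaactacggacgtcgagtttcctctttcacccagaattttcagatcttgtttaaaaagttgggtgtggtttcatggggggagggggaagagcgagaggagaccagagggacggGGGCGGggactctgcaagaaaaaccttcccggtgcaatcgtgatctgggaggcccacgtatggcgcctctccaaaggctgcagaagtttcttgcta
CDH2, chr18:28177081-28177380, − strand: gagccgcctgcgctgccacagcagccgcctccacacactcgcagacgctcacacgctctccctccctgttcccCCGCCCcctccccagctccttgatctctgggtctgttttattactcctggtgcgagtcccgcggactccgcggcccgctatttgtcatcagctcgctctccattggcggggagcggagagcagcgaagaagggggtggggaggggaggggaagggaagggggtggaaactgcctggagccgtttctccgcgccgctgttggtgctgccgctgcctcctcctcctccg
CDH2, chr18:28036592-28036891, − strand: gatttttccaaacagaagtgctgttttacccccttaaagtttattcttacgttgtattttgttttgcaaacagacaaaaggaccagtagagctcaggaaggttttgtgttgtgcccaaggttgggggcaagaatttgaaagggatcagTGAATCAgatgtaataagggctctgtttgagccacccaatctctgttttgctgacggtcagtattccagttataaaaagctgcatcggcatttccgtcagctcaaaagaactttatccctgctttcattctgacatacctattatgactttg
FN1, chr2:215436019-215436318, − strand: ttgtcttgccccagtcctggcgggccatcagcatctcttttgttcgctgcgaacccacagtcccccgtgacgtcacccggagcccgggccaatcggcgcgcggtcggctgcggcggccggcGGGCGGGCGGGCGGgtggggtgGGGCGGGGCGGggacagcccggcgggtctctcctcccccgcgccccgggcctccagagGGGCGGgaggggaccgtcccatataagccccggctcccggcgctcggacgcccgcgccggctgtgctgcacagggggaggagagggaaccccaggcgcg
VIM and the first CDH2 window held 1 GC box each, and FN1 held 6, of which several overlap. The GC box occurred in 45.0% of all 35116 windows of the same length. The second CDH2 window, at an inner start site, held 1 AP-1 word, which occurred in 7.71% of all windows. CAGGTG was in none of these 4 windows nor in the window of ZEB2, and the windows of ZEB1 were not searched. The word occurred in 20.6% of all windows. These are matches of letters in these windows and nothing was measured on the factors.

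CDH2, the cadherin of neural and mesenchymal cells, lies on the − strand at chr18:27932879-28177946. Its siNT libraries held 283, 322 and 371 normalized reads with vehicle and 647, 802 and 789 with doxorubicin. After MLK4 depletion there were 234, 228 and 158 with vehicle and 436, 475 and 468 with doxorubicin. None of the groups compared overlapped. Doxorubicin raised CDH2 2.29-fold in siNT cells (1.08, SE 0.14, adjusted p = 1.7e-05) and 2.22-fold in siMLK4 cells (1.00, SE 0.14, adjusted p = 3.3e-05). In siMLK4 cells it was at 63.6% of the siNT mean with vehicle (−0.56, adjusted p = 0.0092) and at 61.6% with doxorubicin (−0.64, adjusted p = 0.0042), differences that passed the p threshold but not the fold threshold.

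FN1, which encodes fibronectin, lies on the − strand at chr2:215360440-215436073. Its siNT libraries held 538, 917 and 1104 normalized reads with vehicle and 1600, 2307 and 2079 with doxorubicin. The siMLK4 libraries held 1335, 1043 and 693 with vehicle and 2004, 2124 and 2029 with doxorubicin. The vehicle libraries were spread more widely than the doxorubicin libraries in siMLK4 cells. The rise was 2.34-fold in siNT cells (1.22, SE 0.24, adjusted p = 0.0006) and 2.00-fold in siMLK4 cells (1.01, SE 0.24, adjusted p = 0.0023). The siRNAs overlapped under both treatments, with differences of 0.26 (95% interval −0.25 to 0.77) with vehicle and 0.05 (−0.45 to 0.56) with doxorubicin.

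CDH1 encodes E-cadherin, the cadherin of epithelial junctions. Its siNT libraries held 3566, 4422 and 4833 normalized reads with vehicle and 3014, 3653 and 3866 with doxorubicin. Its siMLK4 libraries held 6436, 5474 and 4794 with vehicle and 4329, 4393 and 4310 with doxorubicin. The doxorubicin mean was 82.2% of the vehicle mean in siNT cells (−0.28, SE 0.14, adjusted p = 0.10) and 78.0% in siMLK4 cells (−0.34, SE 0.14, adjusted p = 0.046), and neither was called. The libraries overlapped between treatments in siNT cells and not in siMLK4 cells. With vehicle and doxorubicin, siMLK4 cells had 130% and 124% of the CDH1 of siNT cells, again without a call (0.38, adjusted p = 0.058, and 0.31, adjusted p = 0.12).

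EPCAM had 17070, 12800 and 11600 normalized reads in siNT cells given vehicle and 13400, 13500 and 12960 with doxorubicin. With siMLK4 the levels were 7534, 9331 and 9826 with vehicle and 8446, 8049 and 9238 with doxorubicin. Every siMLK4 library lay below every siNT library. With doxorubicin the change was −0.04 in siNT cells (95% interval −0.34 to 0.27) and −0.05 in siMLK4 cells (−0.35 to 0.26), and both turned positive with scaling by library totals (0.20 and 0.14). In siMLK4 cells EPCAM was at 64.4% of the siNT mean with vehicle (−0.62, SE 0.14, adjusted p = 0.0058) and at 64.6% with doxorubicin (−0.63, SE 0.14, adjusted p = 0.0056), which passed the p threshold and not the fold threshold.

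SNAI1, the zinc finger repressor Snail, had the largest fold rise of the means with doxorubicin of the 9 genes in siNT cells. On the log2 scale of limma-voom its 95% interval overlapped that of VIM under both siRNAs. The values were 4.23 (3.2 to 5.26) and 2.86 (2.15 to 3.56) in siNT cells. In siMLK4 cells they were 3.52 (2.61 to 4.44) and 3.46 (2.16 to 4.76). On the deposited scale the intervals did not overlap in siNT (2.11 to 3.0 and 1.31 to 1.93) or siMLK4 cells (1.74 to 2.63 and 0.62 to 1.24). The siNT libraries of SNAI1 held 11.7, 18.7 and 11.2 normalized reads with vehicle and 332, 318 and 176 with doxorubicin. After MLK4 depletion there were 18, 17.9 and 22.7 with vehicle and 242, 310 and 157 with doxorubicin. The lowest doxorubicin library was far above the highest vehicle library under both siRNAs. The rise was 19.8-fold in siNT cells (2.55, SE 0.21, adjusted p = 3.6e-07) and 12.1-fold in siMLK4 cells (2.18, SE 0.21, adjusted p = 1.4e-06). The siRNAs overlapped with vehicle (0.19, 95% interval −0.26 to 0.63) and with doxorubicin (−0.18, −0.63 to 0.26).

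SNAI2, the related repressor Slug, was the 1 gene of the 9 called lower with doxorubicin, and that in siMLK4 cells. Its siNT libraries held 835, 773 and 1041 normalized reads with vehicle and 461, 481 and 731 with doxorubicin. The siMLK4 libraries held 644, 609 and 690 with vehicle and 253, 213 and 387 with doxorubicin. The groups compared did not overlap. Doxorubicin lowered SNAI2 to 43.8% of the vehicle mean in siMLK4 cells (−1.09, SE 0.19, adjusted p = 0.00024). In siNT cells it was at 63.1% (−0.63, SE 0.19, adjusted p = 0.011), which was not called in the fit of all libraries and was called without siNT doxorubicin replicate 3 (−0.83). With doxorubicin SNAI2 in siMLK4 cells was at 51.0% of the siNT mean (−0.87, SE 0.19, adjusted p = 0.0045). This call was lost when siNT doxorubicin replicate 3 or siMLK4 doxorubicin replicate 1 or 2 was left out (−0.67, −0.81 and −0.71).

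TWIST1, a basic helix-loop-helix factor of mesoderm, had 97.5, 99.7 and 90.9 normalized reads in siNT cells given vehicle and 250, 225 and 258 with doxorubicin. Its siMLK4 libraries held 80.2, 68.8 and 131 with vehicle and 239, 199 and 289 with doxorubicin. The drug separated the libraries under both siRNAs, with a rise of 2.54-fold in siNT cells (1.03, SE 0.16, adjusted p = 7.6e-05) and 2.60-fold in siMLK4 cells (1.06, SE 0.16, adjusted p = 5.5e-05). Between siRNAs the differences were −0.06 (95% interval −0.39 to 0.28) with vehicle and −0.02 (−0.35 to 0.32) with doxorubicin, and both turned positive with library totals (0.04 and 0.05).

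ZEB2, a zinc finger and homeobox repressor, had few reads in every group. Its siNT libraries held 7.05, 7.27 and 4.49 normalized reads with vehicle and 10.2, 9.16 and 15.2 with doxorubicin. With siMLK4 the levels were 10.0, 12 and 10.8 with vehicle and 11.9, 13.3 and 15.4 with doxorubicin. The treatments overlapped in siMLK4 cells and not in siNT cells. No comparison was called, and the counting interval of the ratio in siNT cells ran from 0.995 to 3.47, so that changes of this size could not be resolved at this depth. The siNT vehicle mean of ZEB2 (6.27) lay below the table edge of 10.67 normalized reads, so ZEB2 entered the table through the other groups. Its differences from siNT vehicle cells are shaped by that filter.

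In siMLK4 cells the same 5 genes were called higher and SNAI2 lower, where 12.6% of all genes were called higher and 10.6% lower. The 9 genes had a median log2 fold change of 1.03 in siNT and 0.93 in siMLK4 cells, against 0.00 and 0.02 over all genes. Both responses were measured in the same experiment but against different vehicle groups. With library totals in place of the size factors the median of all genes moved to 0.18 and 0.16, and 72.2% and 69.4% of the calls were higher in place of 53.4% and 54.4%, while 5 and 6 of the 9 genes were still called.

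**Figure D3:**
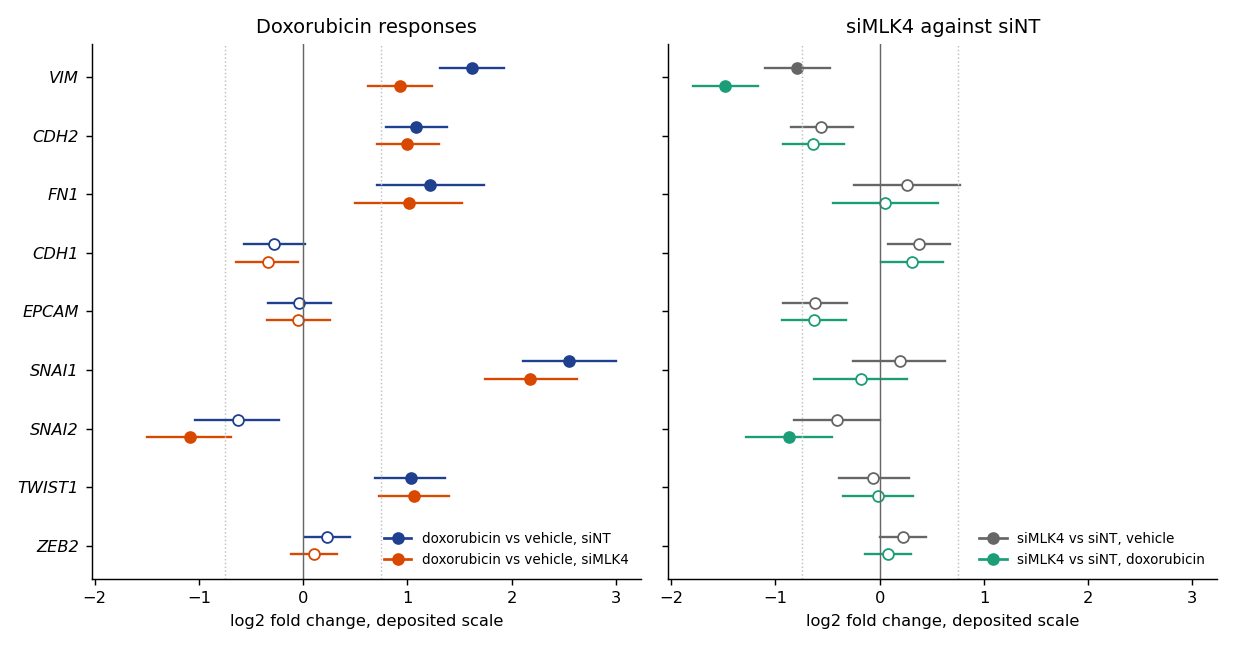
Log2 fold changes of the 9 genes on the deposited scale (points) with 95% intervals (lines), for doxorubicin against vehicle (left) and siMLK4 against siNT (right). Filled points are called, and dotted lines mark the fold threshold of 0.75 in either direction. VIM is the gene with filled points in all 4 comparisons.

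Between siRNAs, VIM was the 1 gene of the 9 called lower with vehicle, and none was called higher, where 3.14% of all genes were called lower and 2.51% higher. With doxorubicin VIM and SNAI2 were called lower and none higher, against 2.93% and 2.66% of all genes. By limma 5 of the 9 had an unadjusted p under 0.05 in each comparison, against 37.0% and 37.1% of all genes, and limma-voom also called 1 lower with vehicle, 2 lower with doxorubicin and 0 higher. The median of the 9 genes was −0.06 with vehicle and −0.18 with doxorubicin, against 0.01 and 0.02 over all genes. With library totals 64.6% of the vehicle calls and 61.1% of the doxorubicin calls were higher, in place of 44.4% and 47.6%.

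The question whether MLK4 depletion altered the response to doxorubicin is answered by the difference between the 2 responses. None of the 9 genes was called for it by limma on the deposited values or by limma-voom on recovered reads, where 0.276% of all genes were called in either direction. At an unadjusted p under 0.05, 1 of the 9 passed, against 14.5% of all genes. This was VIM, with a difference of −0.69 (SE 0.20, adjusted p = 0.12). The sign of that difference depended on the scale. VIM rose by 1.62 in siNT and 0.93 in siMLK4 cells on the deposited scale, but by 2.86 and 3.46 on the log2 scale of reads in limma-voom, where the difference was 0.61 (95% interval −0.87 to 2.09, adjusted p = 0.78). With log2(normalized reads + 1) it was 0.24. The intervals of the other 8 genes all held 0 on both scales, and the widest on the deposited scale was that of FN1 (−0.20, −0.92 to 0.52).

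**Figure D4:**
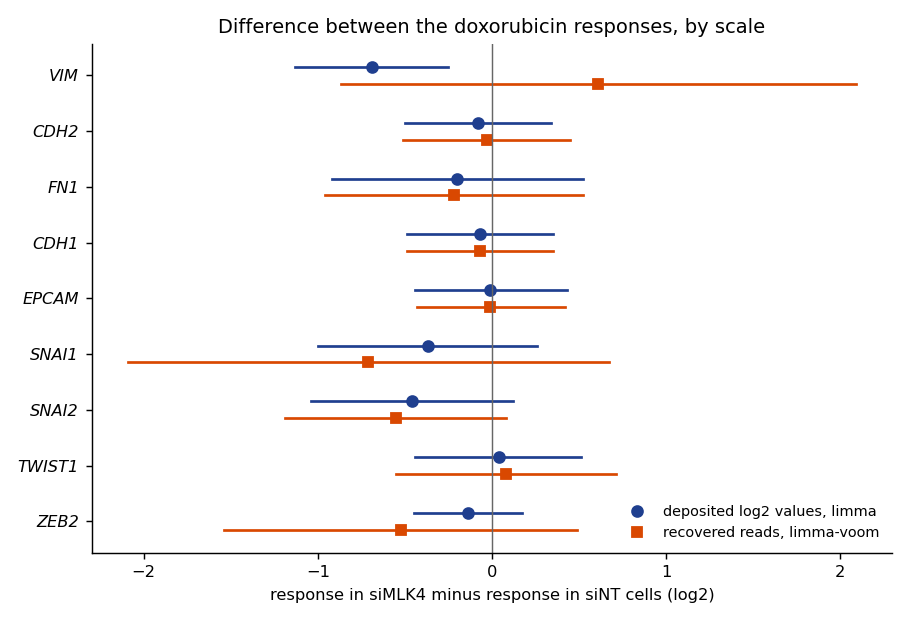
Difference between the doxorubicin responses, siMLK4 minus siNT (log2), of the 9 genes with 95% intervals, from limma on the deposited values (circles) and from limma-voom on recovered reads (squares). VIM changes sign between the scales (−0.69 and 0.61), and the intervals of all other genes include 0.

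Of a wider list of 19 EMT transcription factors, which contains SNAI1, SNAI2, TWIST1 and ZEB2 again, 16 were measured. In siNT cells doxorubicin raised 5, among them SNAI1, TWIST1, SOX4 and ID2, and lowered 2 (TCF3 and ID1), against 12.1% and 10.6% of all genes, with a median of 0.35 over the list against 0.00 over all genes. In siMLK4 cells 4 rose, among them SNAI1, TWIST1 and ID2, and 3 fell (SNAI2, ID1 and ID3), against 12.6% and 10.6% of all genes, with a median of 0.09. ID2, an inhibitor that dimerizes with basic helix-loop-helix factors such as TCF3, went in siNT cells from 103, 125 and 125 normalized reads with vehicle to 1383, 1187 and 1161 with doxorubicin. In siMLK4 cells ID2 was at 406, 378 and 489 with vehicle and at 1587, 1609 and 1361 with doxorubicin, and it was the 1 gene of the list called for the difference between the responses (−1.23, adjusted p = 0.0043), a call lost in 7 of the 12 fits that left out 1 library. With vehicle, siMLK4 cells had more FOXC1 (0.83, adjusted p = 7.9e-05), KLF8, SOX4 (0.98, adjusted p = 8.2e-05) and ID2 (1.51, adjusted p = 1.6e-06), where 2.51% of all genes were higher, and with doxorubicin SNAI2 was the only factor of the list called by limma, while limma-voom called 1 lower and 1 higher.

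Among 29 of 32 mesenchymal markers measured, 7 rose and 5 fell with doxorubicin in siNT cells, with a median of 0.10, and 9 rose and 6 fell in siMLK4 cells, with a median of −0.14. Over all genes 12.1% rose and 10.6% fell in siNT cells, and 12.6% and 10.6% in siMLK4 cells. The list contains VIM, CDH2 and FN1. FSTL1, a secreted glycoprotein, rose in siNT cells (5.27-fold, 2.33, adjusted p = 2.2e-08), as did ACTA2, smooth muscle actin (9.17-fold, 1.78, adjusted p = 1.1e-05). CALD1, the actin-binding protein caldesmon, fell (−1.86, adjusted p = 5.0e-07), as did the crosslinking enzyme TGM2 (−1.28) and the calcium-binding protein S100A4 (−1.12). The receptor kinase AXL fell under both siRNAs (−0.82 and −0.81).

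In siMLK4 cells 5 mesenchymal markers were lower than in siNT cells with vehicle and the same 5 with doxorubicin, among them VIM, NT5E, CD44 and TGM2, and 2 were higher in each, against 3.14% of all genes lower and 2.51% higher with vehicle and 2.93% and 2.66% with doxorubicin. NT5E, the ectonucleotidase CD73, had, with vehicle, 2112, 2419 and 2585 normalized reads in siNT and 782, 800 and 494 in siMLK4 cells (−1.73, adjusted p = 3.9e-06). CD44, the hyaluronan receptor, was at 50990, 69880 and 76790 in the siNT and at 35800, 34020 and 24980 in the siMLK4 vehicle libraries (−1.05, adjusted p = 0.0005). The higher genes were MYL9 and FSTL1 with vehicle and LOX and MMP14 with doxorubicin, so that the list did not move in 1 direction, and its medians were −0.04 and −0.02.

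**Figure D5:**
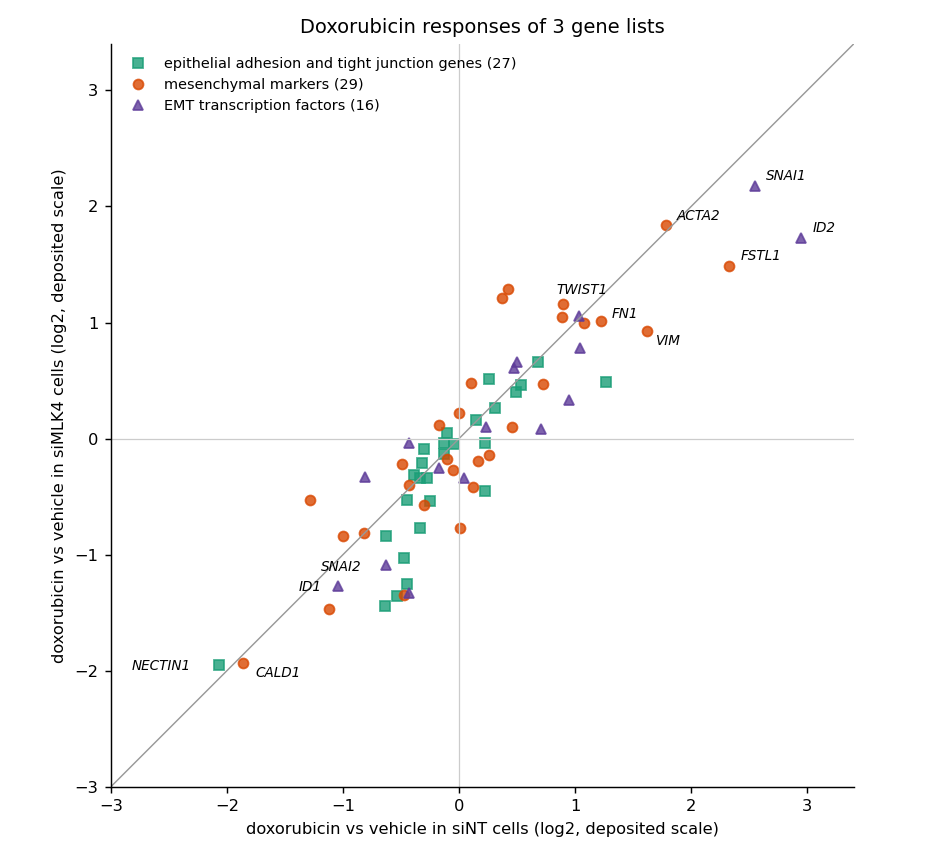
Doxorubicin against vehicle in siNT cells (x axis) and in siMLK4 cells (y axis), as log2 fold changes on the deposited scale, for the measured genes of 3 lists, with the line of equal response. The mesenchymal markers lie on both sides of 0 (FSTL1 at 2.33, CALD1 at −1.86 in siNT cells), and the 2 axes rest on different libraries.

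The 27 genes of epithelial adhesion and tight junctions were all measured, with medians of −0.25 in siNT and −0.21 in siMLK4 cells. In siNT cells doxorubicin raised CGN, the junction protein cingulin (1.27, adjusted p = 2.1e-06), and lowered NECTIN1, a nectin of adherens junctions (−2.07, adjusted p = 4.2e-08). In siMLK4 cells 7 fell and none rose, against 10.6% and 12.6% of all genes, with NECTIN1 (−1.95), NECTIN4 (−1.44) and TJP3 (−1.36) the largest, and limma-voom likewise called 0 higher and 7 lower. For the difference between the responses 0 of the 27 were called, with 6 at an unadjusted p under 0.05, against 14.5% of all genes. With doxorubicin 0 of the 27 were called between siRNAs, with 8 at an unadjusted p under 0.05, against 37.1% of all genes, and 1 called by limma-voom. With vehicle limma called TJP3 (0.96) and CGN (1.03) higher in siMLK4 cells, against 2.51% of all genes, and limma-voom called 1 of the 27 higher.

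Of 19 regulators of the epithelial state, all measured, 4 rose in siNT cells with doxorubicin and 1 fell, against 12.1% and 10.6% of all genes. In siMLK4 cells 2 rose and 2 fell, against 12.6% and 10.6% of all genes, and the medians were −0.05 in siNT and −0.15 in siMLK4 cells. OVOL1 and OVOL2, zinc finger factors known to oppose the transition, rose in siNT cells (1.68 and 0.93) and in siMLK4 cells (1.62 and 0.81). PRSS8 fell under both siRNAs (−1.03 and −1.01), and AP1M2 fell in siMLK4 cells (−0.77). The epithelial factor ELF3 rose in siNT cells (1.20, adjusted p = 1.8e-06), and EHF was lower in siMLK4 cells with vehicle (−0.78, adjusted p = 0.0061) and doxorubicin (−0.93, adjusted p = 0.0022).

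Partners of the proteins were read in further lists. Over all genes doxorubicin raised 12.1% and lowered 10.6% in siNT cells, and 12.6% and 10.6% in siMLK4 cells. Between siRNAs 3.14% of all genes were lower with vehicle and 2.93% with doxorubicin. Among 13 of 16 non-keratin intermediate filament and linker genes, VIM and SYNM, which encodes a filament protein that assembles with vimentin, rose under both siRNAs, SYNM by 2.52 and 2.04. The linker PLEC fell under both (−1.62 and −1.13), and INA was lower in siMLK4 than in siNT cells with doxorubicin (−1.03, adjusted p = 0.0001). Of 23 cadherins 13 were measured, and doxorubicin raised 2 and lowered 3 in siNT cells and raised 3 and lowered 2 in siMLK4 cells. CDH2 and CDH23 rose and CDH15 and CDH18 fell under both siRNAs. CDH7 fell in siNT cells and CDH24 rose in siMLK4 cells. Of 12 fibronectin receptor and matrix assembly genes 11 were measured. With doxorubicin 3 rose and 3 fell under each siRNA, with medians of −0.39 in siNT and −0.33 in siMLK4 cells. ITGA5, the integrin chain of the fibronectin receptor, rose by 0.90 and 1.16, while ITGB6 and TNS3 fell under both. ITGB1, the partner of ITGA5, was lower in siMLK4 cells with vehicle (−0.89) and doxorubicin (−0.85), as was TGM2.

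Regulators of these factors can be read against the shares of all genes called. With doxorubicin these were 12.1% higher and 10.6% lower in siNT cells, and 12.6% and 10.6% in siMLK4 cells. Between siRNAs 2.51% of all genes were higher with vehicle, and 2.66% were higher and 2.93% lower with doxorubicin. Of 12 TGF-beta pathway genes, the ligands TGFB2 (1.73 and 1.36) and TGFB3 (1.51 and 0.99) and the inhibitor SKIL (0.85 and 0.82) rose under both siRNAs, and TGFBR3 and the corepressor SKI fell. The receptor TGFBR2 was lower in siMLK4 cells with doxorubicin (−1.05, adjusted p = 0.00037). Of 14 corepressors of EMT factors, EZH2 and LOXL2 rose and CTBP1 and KDM1A fell under both siRNAs. Of 17 genes for turnover of EMT factors, GSK3B, PAK1 and CTDSP1 fell and USP51 rose in siNT cells with doxorubicin, while in siMLK4 cells limma called 0 of the 17, with 10 at an unadjusted p under 0.05 against 62.6% of all genes and 3 called by limma-voom. BTRC, a ubiquitin ligase subunit, was higher in siMLK4 cells with vehicle (0.81) and doxorubicin (0.88).

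The profile of VIM over the 12 libraries was compared with 11057 genes that had a mean of at least 100 normalized reads, as a description over points that share libraries and treatments. The most similar genes on the deposited scale were PMEPA1 (Pearson's r = 0.983), LYRM1 (0.981), BMS1P23 (0.980), TOP1 (0.979) and DPM1 (0.979). PMEPA1 had means of 413, 775, 264 and 437 normalized reads in siNT vehicle, siNT doxorubicin, siMLK4 vehicle and siMLK4 doxorubicin cells. The most opposite were RHPN2 (−0.977), EHMT2 (−0.975) and PITPNM1 (−0.974). Within the 9 genes the r with VIM was 0.911 for CDH2, 0.715 for SNAI1, 0.715 for TWIST1 and −0.852 for CDH1. The epithelial gene EPCAM had an r of 0.578, FN1 of 0.523, ZEB2 of 0.16 and SNAI2 of −0.133.

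The label of a triple-negative epithelial line was read against marker genes. The 10 breast epithelial markers were all measured and took 0.346% to 0.863% of the reads of a library, with KRT8 the most abundant in the doxorubicin libraries and KRT5 or KRT19 in the vehicle libraries. Doxorubicin lowered KRT5, KRT14, KRT6A, KRT18 and KRT19 under both siRNAs, 5 of the 10 against 10.6% of all genes, among them KRT5 (−1.24 and −2.20) and KRT19 (−1.68 and −2.47). KRT14 and KRT6A were lower in siMLK4 cells with vehicle (−1.05 and −1.19) and doxorubicin (−1.26 and −1.03), and with doxorubicin KRT17 and KRT7 were lower as well, against 3.14% and 2.93% of all genes lower. Of the receptors that define the subtype, PGR was at 0 reads in every vehicle library, which allows up to 3 reads a library, and had means of 13.3 normalized reads in siNT and 11.7 in siMLK4 cells with doxorubicin, the groups through which it entered the table, so no test is given. ESR1 had group means of 46.5 to 117 normalized reads and fell with doxorubicin in siMLK4 cells (−0.78, adjusted p = 0.0014), and ERBB2 had 1272 to 2027 in single libraries.

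Of 9 fibroblast markers 6 were in the table, and COL1A2, COL3A1 and DCN were not. Their sum was 486 to 550 normalized reads in siNT vehicle, 358 to 376 in siNT doxorubicin, 745 to 923 in siMLK4 vehicle and 443 to 570 in siMLK4 doxorubicin libraries, with COL1A1 the most abundant. The fibroblast sums were higher in siMLK4 cells, where VIM was lower, and lower with doxorubicin, where VIM was higher. Single markers differed in direction. LUM fell with doxorubicin in siNT (−1.56) and siMLK4 cells (−2.05), whereas PDGFRA had means of 2.29 and 24.7 normalized reads with vehicle and doxorubicin in siNT cells and 2.42 and 33.1 in siMLK4 cells, and entered the table through doxorubicin. Of 8 leukocyte and endothelial markers 3 were in the table, CD3E, LYZ, PECAM1 and CDH5 were among those that were not, and their sum was 32.2 to 118 normalized reads, with VWF the most abundant in 10 libraries and CD14 in 2. This sum was higher with doxorubicin, as VIM was, at 32.2 to 55.0 with vehicle against 64.1 to 81.1 in siNT cells and 61.8 to 95.1 against 100.1 to 118 in siMLK4 cells. Under each treatment it was also higher in siMLK4 than in siNT cells, whereas VIM was lower there. PTPRC, the leukocyte antigen CD45, had means of 5.48 and 20.3 normalized reads with vehicle and doxorubicin in siNT cells and 1.75 and 17.9 in siMLK4 cells, and it too entered the table through the doxorubicin groups, so no test is given. The part of these markers in the changes of VIM was not tested.

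Of the 3 reference genes, ACTB fell with doxorubicin in siNT (−1.21, adjusted p = 2.0e-05) and siMLK4 cells (−1.04, adjusted p = 7.6e-05). GAPDH fell in siMLK4 cells (−0.87) and was at −0.74 in siNT cells, short of the fold threshold. B2M changed by 0.50 under both siRNAs without a call. Between siRNAs the 3 genes were not called, with differences from −0.34 to 0.06.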

How the data were processed

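Total RNA was selected for poly(A), made into 12 paired-end libraries and sequenced on a NovaSeq instrument. The submitters' processing notes name Trimmomatic 0.39, HISAT2, HTSeq 0.6.0, DESeq2 1.26.0 and the build hg19, whereas the supplementary methods describe mapping to GRCh38, removal of optical duplicates and counting by strand. The table lists 708 gene identifiers numbered above 274000, which were assigned only in annotations of GRCh38, so genes were annotated with GENCODE 44 on GRCh38 (16957 of 17013 matched). The values deposited by the authors are log2 values after a variance-stabilizing transformation of counts divided by size factors, as read from the values. The transformation was inverted, and 100% of the values gave whole reads within 0.05. Size factors ran from 0.852 to 1.199.

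Samples were grouped by siRNA and treatment in the labels. All genes were tested on the deposited log2 values with limma 3.58.1 in R 4.3.3 (variance trend, 4 group means, 12 libraries), with Benjamini-Hochberg adjustment over 17013 genes. Calls needed an adjusted p below 0.01 and a log2 fold change beyond 0.75 either way. The fit was tested on simulated reads in which only genes with high mean reads were changed. VIM, CDH2, ZEB2, SNAI1, SNAI2 and TWIST1 had lower means than those genes, so the test does not cover them. The alternatives were limma-voom on the recovered reads, no variance trend, log2(normalized reads + 1), TMM scaling, library totals, a filter of 10 reads in every library, only the groups compared, a replicate block, an adjusted p under 0.05 alone, and leaving out each library. Counting intervals are at 95%, rest on reads pooled over the libraries of each group and cover counting error only. They leave out the spread between libraries, and reads carry no molecular identifiers.

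The members and lists were chosen with earlier results of these data known. Named are all members in the table, the siRNA target, 3 reference genes, from each list at most 3 called genes with the largest change per comparison and any called for the difference between responses, and the 5 genes most and 3 least correlated with VIM. KLF8, ID3, OVOL2, AXL, CDH23, CTDSP1 and other list genes outside those limits were named after their values were seen. Equally numbered libraries deviated together between vehicle and doxorubicin in siNT cells (correlations 0.46, 0.11 and 0.20) and between siRNAs with doxorubicin (0.19, 0.52 and 0.56), but not in siMLK4 cells (−0.08, 0.18 and 0.34) or between siRNAs with vehicle (−0.72, 0.32 and −0.52). No label states a pairing. Some list genes are not reported here by name.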

Additional observations from a re-analysis of the deposited data

Results flagged for a closer look

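ID2 was the single list gene whose doxorubicin response was called different between the siRNAs. It rose by 2.95 in siNT cells and by 1.73 in siMLK4 cells on the deposited scale, a difference of −1.23 (limma, adjusted p = 0.0043). The 2 groups with doxorubicin differed by 0.28 (adjusted p = 0.11) and the 2 with vehicle by 1.51 (adjusted p = 1.6e-06). The difference stayed between −1.30 and −1.13 when each library was left out, with adjusted p from 0.0071 to 0.019, and was called in 5 of these 12 fits.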

How the results depend on the processing

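Depth limits VIM, whose siMLK4 vehicle group rests on 8 reads, and ZEB2, which had few reads in every group. The difference between responses needs all 4 groups, so it has no value from only the groups compared. The replicate block left 5, 6, 1, 2 and 0 of the 9 genes called, as without it, with 3854, 3937, 951, 945 and 40 genes of the table called in siNT doxorubicin, siMLK4 doxorubicin, siMLK4 against siNT with vehicle, the same with doxorubicin, and the difference between responses, and it changed no call of the 9 genes. Without it these counts were 3859, 3949, 961, 950 and 47. Between siRNAs with vehicle, limma-voom called 1483 genes, log2(normalized reads + 1) 1613 and the fit of only the 2 groups 611. With doxorubicin limma-voom called 1466, and for the difference between responses 29. Without a fold threshold, at an adjusted p under 0.05, the counts were 9745, 9858, 4381, 4219 and 204, and 3 and 4 of the 9 genes passed between siRNAs with vehicle and doxorubicin. The 9 genes gave 0 calls between siRNAs with vehicle under library totals, under a minimum of 10 reads and in the fit of the 2 groups. Under that minimum 1 was called with doxorubicin, since VIM was filtered out. Leaving out each library gave 3602 to 4186, 3508 to 4419, 929 to 1016, 761 to 1121 and 0 to 37 genes called, and 5 to 6, 5 to 6, 0 to 1, 1 to 2 and 0 of the 9 genes. The count of 0 came without siMLK4 doxorubicin replicate 1, where 1856 genes had an unadjusted p under 0.05 by limma. The VIM difference between responses turned positive with limma-voom (0.61) and log2(normalized reads + 1) (0.24), EPCAM turned positive with library totals in siNT (0.20) and siMLK4 cells (0.14) and in its difference between responses with TMM (0.02), and TWIST1 turned positive between siRNAs with library totals (0.04 and 0.05), none of them called. The cause was not tested. Leaving out a library also reversed uncalled values, which ranged for the difference between responses from −0.17 to 0.06 (CDH1), −0.23 to 0.00 (CDH2), −0.17 to 0.11 (EPCAM), −0.45 to 0.08 (FN1) and −0.09 to 0.23 (TWIST1), for EPCAM with doxorubicin from −0.15 to 0.12 in siNT and −0.16 to 0.03 in siMLK4 cells, and between siRNAs with vehicle and doxorubicin from −0.02 to 0.50 and −0.09 to 0.16 (FN1) and −0.24 to 0.07 and −0.13 to 0.09 (TWIST1) and, with doxorubicin, −0.43 to 0.03 (SNAI1).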
